A study of Mus musculus with 12 samples.

Results

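The circadian clock genes Arntl, Clock, Npas2, Per1, Per2, Per3, Cry1, Dbp, Nr1d1 and Nr1d2 were taken by symbol from the deposited tables of normalized counts. All 10 genes were found in both tables, among 32689 genes in the colon table and 25514 in the blood table, and 24259 genes were in both. The study measured total RNA in colon and whole blood of mice with colitis from dextran sulfate sodium (DSS), a polymer that injures the gut lining when mice drink it and that serves as a model of ulcerative colitis (UC). The 12 libraries came from 6 mice, with 3 mice per labelled group and a colon and a blood library for each mouse number. The colon and the blood of one mouse are 2 views of the same animal, so the order of the mice could be compared between the tissues.

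All animals were C57BL/6 males, 8 weeks old when they were obtained, kept on a light-dark cycle with free access to food. The mice numbered 1, 2 and 4 are labelled UC, and in the study's methods the UC group received 1.5% DSS for 7 days. The mice numbered 7, 8 and 9 are labelled control, and the control group drank the same water without DSS. In the sources used here, only these labels state which mouse number drank DSS, and the inflammatory genes given below went against them. Every mouse was killed on day 8. Per the study's methods, the sequenced mice were selected by their disease activity score. The hour of the day at which each mouse was killed is not given in the sources used here. One label field gives the tissue and another gives the opposite tissue in every sample, and the first was used. The summed normalized counts of goblet cell markers were at least 1073590 in every library called colon and at most 298.0 in every library called blood, and those of red cell markers at most 4005 in colon and at least 3932840 in blood. Total counts of the colon libraries lay between 69181049 and 103662306, and those of the blood libraries between 80867247 and 142536804. Genes of the normalized table of the tissue held 81.3% to 91.4% of these counts in colon and 32.1% to 60.9% in blood.

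The disease labels went against the inflammatory genes in the colon. S100a8, a neutrophil protein that is abundant in inflamed gut, reached 5370, 33.1 and 22.3 normalized counts in the colon of mice 1, 2 and 4, labelled UC, and 1888, 75.6 and 13337 in mice 7, 8 and 9, labelled control. Lcn2, a bacteriostatic protein of neutrophils and injured epithelium, had 1248, 96.7 and 99.8 against 1208, 117.2 and 9155. The study lists Saa3 among the genes most raised in the colon of its UC mice. Here Saa3 had 4701, 0 and 0 normalized counts in the colon against 3256, 0 and 26328. All 9 inflammatory genes examined had their 3 highest colon values in mice 1, 7 and 9, as did 7 of the 9 in blood, and the groups are therefore called labelled UC and labelled control below. The columns of both deposited normalized tables stand in the order of mice 1, 7, 9, 2, 4 and 8, and no group was taken from that order. Every direction between the groups below rests on the labels as given, and so does every count of genes called. A lack of calls between the labelled groups is therefore no measure of what colitis did to the clock genes.

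The mammalian clock is a feedback loop of transcription. ARNTL (BMAL1) pairs with CLOCK or its relative NPAS2 and switches on the Per and Cry genes through E-box sequences, and the PER and CRY proteins then block their own activators. ARNTL and its partner also switch on Nr1d1 and Nr1d2, whose nuclear receptors repress Arntl through ROR elements, and Dbp, whose protein activates genes through D-box sequences. Transcripts of Dbp, Nr1d1 and Per3 swing widely over the day in many tissues, with Arntl near its lowest when they are near their highest. Colon and blood cells hold such clocks, and Per1 is also switched on directly by glucocorticoid hormone.

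Promoter windows of 250 bases before to 50 bases after a transcript start were available from RefSeq (GRCm38.p6) for 9 of the 10 genes, 13 windows in all, with Per2 missing. The E-box CACGTG, which reads alike on both strands, lay in windows of Cry1 and Per1, and in 7.15% of all 32851 windows. Its variant CACGTT, read on either strand, lay in windows of Cry1 and Nr1d1 and in 4.68% of all windows. The D-box TTATGTAA lay in the Per3 window in 2 copies and in 0.938% of all windows. The ROR element lay in 1 of the 2 Arntl windows and in 0.384% of all windows, and neither the D-box TTACGTAA, in 0.119% of all windows, nor the cAMP element TGACGTCA, in 1.79%, lay in any of the 13. The stretches around these matches are printed because they carry the sequence elements by which the loop is known to act, with the matched motif in capitals and none of the matches overlapping another.
Cry1, chr10:85185079-85185163, minus strand, variant then E-box: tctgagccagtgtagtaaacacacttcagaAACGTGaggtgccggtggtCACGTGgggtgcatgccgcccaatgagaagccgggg
Nr1d1, chr11:98775378-98775435, minus strand, variant: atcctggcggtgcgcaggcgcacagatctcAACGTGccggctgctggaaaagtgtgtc
Per1, chr11:69098753-69098818, plus strand, E-box: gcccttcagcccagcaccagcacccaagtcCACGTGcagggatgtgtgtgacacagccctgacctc
Per3, chr4:151044786-151044900, minus strand, D-boxes: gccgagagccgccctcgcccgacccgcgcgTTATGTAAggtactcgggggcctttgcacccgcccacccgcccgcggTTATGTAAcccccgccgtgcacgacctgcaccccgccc
Arntl, chr7:113207528-113207556, plus strand, ROR element: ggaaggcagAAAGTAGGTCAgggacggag

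Counted with the base before the transcript start as -1, the first bases of the Cry1 matches were at -79 and -60, that of Nr1d1 at -28, that of Per1 at -166 and those of Per3 at -205 and -158. The Arntl match began at base 27 after the start, inside an exon in the GENCODE annotation. The Per1 stretch lay in an intron of the gene as annotated, before the second of its starts, and the Cry1, Nr1d1 and Per3 stretches lay outside the annotated genes. A match is a description of these letters only, and binding was not measured.

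Levels were first set side by side per length, as CPM per kb, a gene's share of the library's total count on the usual CPM scale divided by its exon length in kilobases. In the colon the 2 REV-ERB genes were highest, Nr1d1 at 28.4 ± 21.9 (SD, n = 6) and Nr1d2 at 21.7 ± 10.3, followed by Clock at 14.3 ± 4.43 and Dbp at 12.9 ± 14.2. The other 6 genes lay between 3.82 ± 1.54 for Cry1 and 5.87 ± 4.18 for Per3 CPM per kb. In blood Nr1d2 was highest at 1.11 ± 0.319 CPM per kb and Per1 followed at 1.07 ± 0.817, while Nr1d1 was at 0.0325 ± 0.0386 and Npas2 at 0.0182 ± 0.0198. Nr1d1 was the first of the 10 in colon and the ninth in blood. Neighbours in the colon order differed by less than the larger of their SDs. In blood they did so too, apart from Cry1 above Arntl, Dbp above Per3 and Per3 above Nr1d1. These levels are not compared between the tissues, since the blood libraries were depleted of globin RNA and each tissue was scaled on its own.

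In the colon, none of the 10 genes separated mice labelled UC from mice labelled control. By edgeR's quasi-likelihood test with Benjamini-Hochberg adjustment over 22238 genes, 0 of 10 were called at an adjusted p of at most 0.05 with a log2FC over 1 in size, against 0.0045% of all genes tested, and the lowest adjusted p among them was 0.9999. At an unadjusted p under 0.05 the count was 0 of 10, against 1.41% of all genes, and for 0 of 10 did the labelled groups not overlap, against 5.41% of all genes. The median log2FC of labelled UC over labelled control was 0.03 over the 10 genes and -0.01 over all genes. In bulk tissue, fewer cells of a type and less RNA per cell cannot be told apart.

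The activators were highest in mouse 2. Arntl, which encodes the BMAL1 subunit, had 2483, 6343 and 2756 normalized counts in mice 1, 2 and 4, labelled UC, and 3120, 2158 and 2865 in mice 7, 8 and 9, labelled control. Mouse 2 was 2.94 times mouse 8, the lowest, while the other 5 libraries lay between 2158 and 3120. Its log2FC was 0.50 with an SE of 0.393, and without mouse 2 it was -0.07. Clock, its partner, had 13078, 23296 and 20257 in labelled UC and 10189, 18974 and 14484 in labelled control. Npas2, which can take the place of Clock, had 2384, 3071 and 1712 against 2518, 1974 and 1972, a log2 range of 0.84 that 53.5% of genes with a mean of at least 100 normalized counts matched or passed. Mouse 2, picked out after its values were seen, was the highest of the 6 for 4 of the 10 genes, Arntl, Clock, Npas2 and Per1, and for 14.6% of all 22123 genes with a mean of at least 10 normalized counts. It was also the highest for all 6 smooth muscle markers, whose sum was 534675 in mouse 2 and 128101 to 409540 in the other 5. Their part in these values was not tested.

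Of the Per and Cry genes in the colon, Per3 had the widest range. Per3 had 4043, 3345 and 7913 normalized counts in mice 1, 2 and 4, labelled UC, and 2032, 11034 and 1371 in mice 7, 8 and 9, labelled control. The highest and the lowest of the 6 both carried the control label, 8.05-fold apart. Per1, the immediate-early member of the family, had 3089, 3323 and 1508 against 2486, 3265 and 2835, and mouse 4 was the lowest. Per2, the other core repressor of the family, had 1736, 3050 and 2277 against 1368, 3189 and 2442. Its labelled group means were 2354 ± 660 (SD, n = 3) and 2333 ± 915 (SD, n = 3), a log2FC of -0.0012 with an SE of 0.358. Cry1, the partner of the PER proteins, had 1296, 1206 and 533 against 1405, 603 and 1424, so that mice 4 and 8, 1 from each labelled group, were the lowest.

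The widest gene of the 10 in the colon was Dbp, the clock-driven transcription factor of the D-box. Dbp had 1649, 657 and 7783 normalized counts in mice 1, 2 and 4, labelled UC, and 1033, 8908 and 577 in mice 7, 8 and 9, labelled control. Mice 4 and 8 stood well above the other 4, and mouse 8 was 15.4 times mouse 9 although both are labelled control. The log2 range of 3.95 was matched or passed by 3.58% of 15842 genes, whose median range was 0.90. The labelled groups had means of 3363 ± 3860 (SD, n = 3) and 3506 ± 4684 (SD, n = 3), a log2FC of -0.09 with an SE of 1.25. Without mouse 8 that log2FC was 2.05 and without mouse 4 it was -1.62.

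The REV-ERB genes had the same 2 mice at the top. Nr1d1, which encodes REV-ERB alpha, had 4507, 2612 and 14306 normalized counts in the colon of mice 1, 2 and 4, and 5729, 16619 and 2409 in mice 7, 8 and 9. Nr1d2, which encodes REV-ERB beta, had 9764, 5805 and 16650 against 7999, 16367 and 4644. For both, mouse 4 of labelled UC and mouse 8 of labelled control were the highest 2, and mice 2 and 9 the lowest 2. The log2 range was 2.79 for Nr1d1 and 1.84 for Nr1d2, which 7.91% and 18.0% of genes matched or passed.

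**Figure D1:**
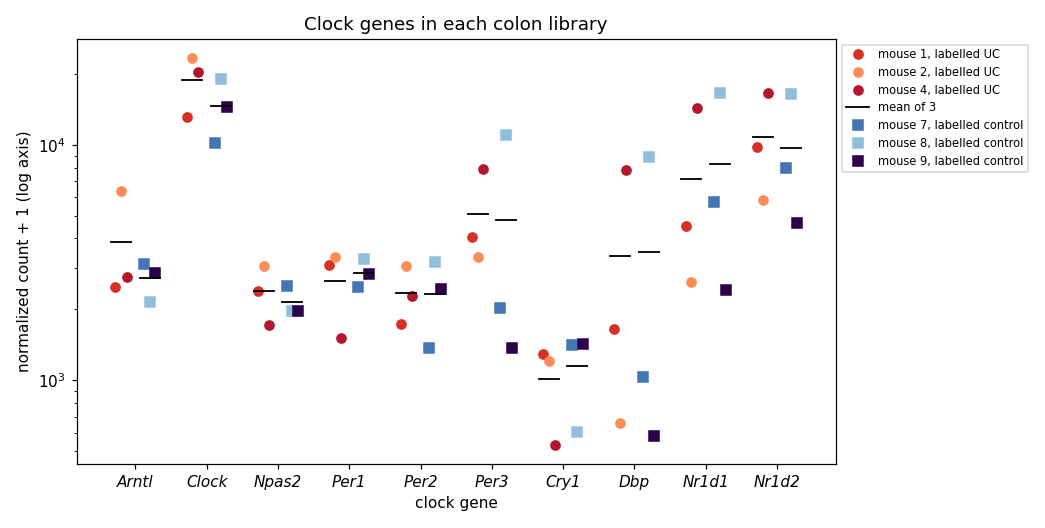
Normalized count plus 1 (log axis) of each clock gene in each colon library, with circles for mice labelled UC, squares for mice labelled control and bars for the mean of 3. For Per3, Dbp, Nr1d1 and Nr1d2, mouse 4 (dark red) and mouse 8 (light blue) lie above the other 4 mice, 1 from each labelled group.

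Within the colon, Per3, Dbp, Nr1d1 and Nr1d2 put the mice in nearly the same order. Of the 15 pairs of mice, Dbp put 14 in the same order as Per3, 14 in the same order as Nr1d1 and 14 in the same order as Nr1d2. The 3 pairings among Per3, Nr1d1 and Nr1d2 each had 13. Cry1 shared few pairs with these genes, 2 of 15 in the same order as Per3, 2 as Nr1d2, 3 as Dbp and 4 as Nr1d1. Arntl and Dbp shared 3 of 15. Over all 45 pairings of the 10 genes the median was 7 of 15, as it was over all pairs of 21667 genes. Of the 45, 6 pairings reached 13 or more, each among those 4 genes, against 4.71% of all pairs of genes. Another 2 of the 45, both with Cry1, had 2 or fewer, a share close to the 4.43% of all pairs of genes. These counts are descriptions, since all the genes were read in the same 6 libraries.

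**Figure D2:**
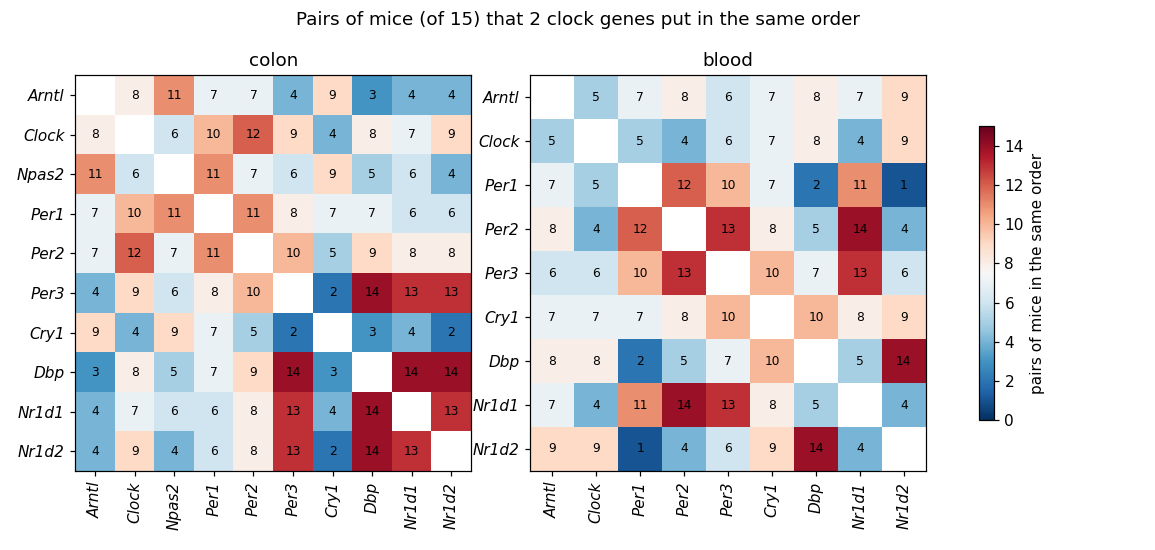
Number of the 15 pairs of mice that 2 clock genes put in the same order, in colon (left, 10 genes) and blood (right, 9 genes, without Npas2), with red above and blue below an even split. In colon the block of Per3, Dbp, Nr1d1 and Nr1d2 holds values of 13 and 14 and the column of Cry1 is blue against it, while in blood the high values join Per2, Per3 and Nr1d1 and, apart from them, Dbp and Nr1d2.

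A ratio of 2 genes within a library does not depend on how libraries are scaled. The log2 ratio of Dbp counts to Arntl counts in the colon was -0.59, -3.27 and 1.50 in mice 1, 2 and 4, labelled UC, and -1.59, 2.05 and -2.31 in mice 7, 8 and 9, labelled control. Dbp was above Arntl in mice 4 and 8 and below it in the other 4. The log2 ratio of Nr1d1 to Arntl was 0.86, -1.28 and 2.38 against 0.88, 2.95 and -0.25. That of Per3 to Arntl was 0.70, -0.92 and 1.52 against -0.62, 2.35 and -1.06. All 3 ratios were highest in mouse 8 and next highest in mouse 4, across the disease labels.

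The pair of mice 4 and 8 was singled out after these values were seen. Mice 4 and 8 held the 2 highest values of 4 of the 10 genes in the colon, and the same holds for 15% of all 22123 genes with a mean of at least 10 normalized counts. They held the 2 lowest values of 1 of the 10, Cry1, against 14.7% of all genes. The same pair therefore stood apart in many genes outside the clock, and the lists of cell type markers differed between the mice too. Mice 4 and 8 held the 2 highest colon values of 3 of 6 absorptive colonocyte markers and 3 of 5 goblet cell markers. The same held for 2 of the 4 red cell markers with a mean of at least 10 normalized counts. Of the 9 neutrophil markers, Ly6g made up most of the colon sum and had 16355 normalized counts in mouse 4, 17455 in mouse 8 and 7350 to 25479 in the other 4. The other 8 neutrophil markers summed to 250.8 in mouse 4, 180.2 in mouse 8 and 158.5 in mouse 2, against 3997 to 14495 in mice 1, 7 and 9. Mice 2, 4 and 8 were the 3 with low inflammatory genes, and for Dbp, Nr1d1 and Nr1d2 the lowest 2 were mouse 2 and mouse 9, the mouse with the highest inflammatory genes. Mice 2, 4 and 8 held the 3 highest values of 1 of the 10 clock genes, Clock, against 14.7% of all genes. Mice 1, 7 and 9 held the 3 highest of 1 of the 10, Cry1, against 18.3% of all genes. The T cell markers summed to between 305.0 and 447.1 in mice 2, 4 and 8 and to between 1195 and 1730 in the other 3. The B cell markers did not split that way. In mice 1, 2, 4, 7, 8 and 9 the B cell markers summed to 172.4, 1008, 1882, 2432, 268.5 and 2857. The part of cell makeup or of the hour of collection in these orders was not tested.

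Of the 21 other clock pathway genes listed, 0 were called in either direction in the colon, and 0 of 21 had an unadjusted p under 0.05. Their median log2FC was -0.0018. In 7 of the 21, mice 4 and 8 were the highest 2, against 15% of all genes. Tef and Hlf, which belong to the same D-box-binding family as Dbp, were among these 7, together with Ciart, a repressor of the ARNTL and CLOCK pair, Bhlhe40 and Bhlhe41. Tef had 6296, 2545 and 10056 normalized counts in mice 1, 2 and 4 and 4135, 12814 and 2709 in mice 7, 8 and 9. Ciart had 186.6, 125.4 and 877.6 against 174.5, 1225 and 162.9, with mice 4 and 8 above the other 4. In the other direction, mice 4 and 8 were the lowest 2 for 3 of the 21 (14.3%), Nfil3, Rora and Csnk1e. That share was close to the 14.7% of all genes. Nfil3, a repressor at the same D-boxes that Dbp activates, had 1424, 393.6 and 96.5 against 1667, 37.8 and 1722. Its 3 highest values, in colon and in blood, were those of mice 1, 7 and 9, the mice with high inflammatory genes.

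**Figure D3:**
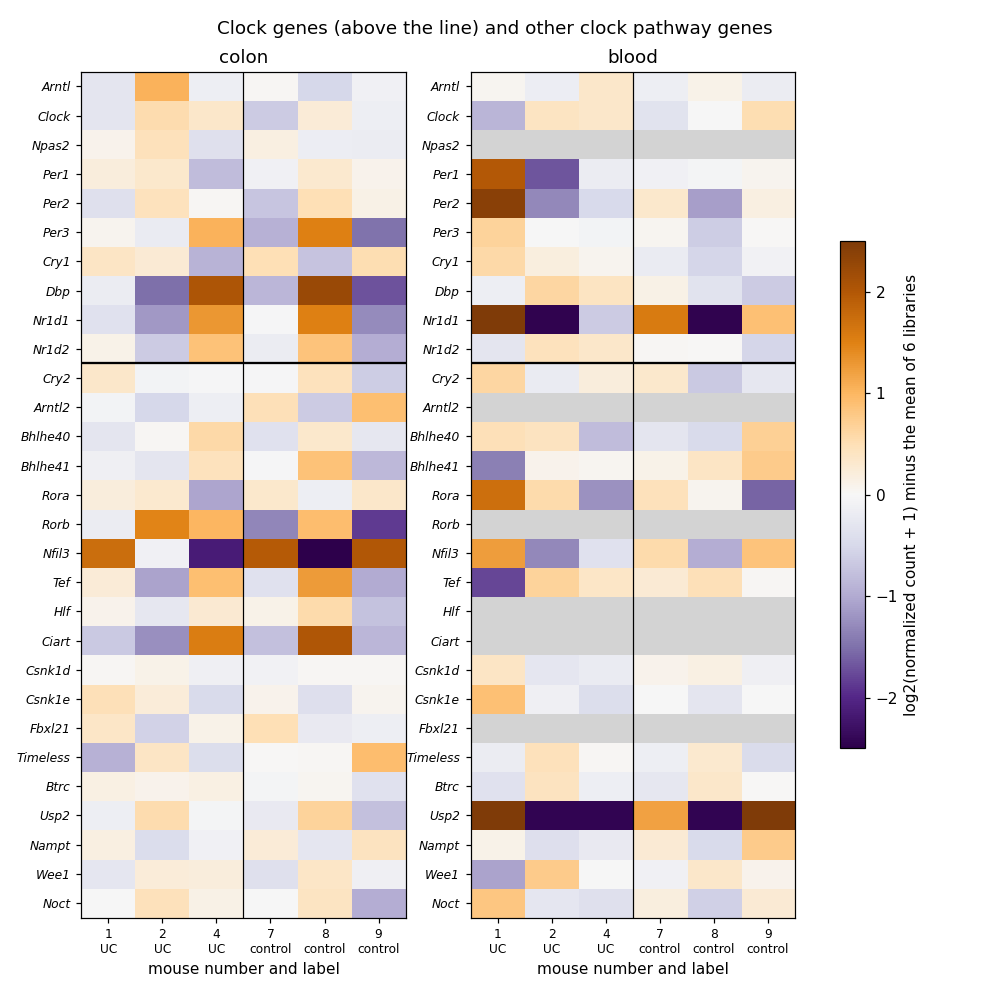
Log2(normalized count + 1) minus the gene's mean over the 6 libraries of a tissue, for the 10 clock genes (above the line) and 19 of the 21 other clock pathway genes (below it), with mice 1, 2 and 4 labelled UC and mice 7, 8 and 9 labelled control. Colours end at 2.5 in either direction and grey marks genes with a mean under 10 normalized counts. In colon the columns of mice 4 and 8 are both high for Dbp, Nr1d1, Tef and Ciart and low for Nfil3, and in blood the column of mouse 1 stands apart for Per1 and Per2.

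In blood, 0 of the 10 genes were called between the labelled groups by edgeR's quasi-likelihood test with Benjamini-Hochberg adjustment over 16759 genes, against 0% of all genes, and their lowest adjusted p was 0.9998. At an unadjusted p under 0.05 the count was 0 of 10, against 1.44% of all genes. Values of the 2 labels were fully separate for 1 of the 10, Cry1, against 6.5% of all genes. The median log2FC of labelled UC over labelled control was 0.48 over the 10 genes and 0.04 over all genes, and 8 of the 10 log2FC were above 0. Leaving out mouse 1 alone turned those of Per1, Per2 and Nr1d1 below 0 and those of Clock and Npas2 above it.

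Of the activators in blood, Arntl had a narrow range and Clock a wider one. Arntl had 484, 417 and 590 normalized counts in mice 1, 2 and 4, labelled UC, and 419, 502 and 408 in mice 7, 8 and 9, labelled control. Its log2 range of 0.53 was matched or passed by 85.2% of 11105 genes, whose median range was 0.94. Clock had 390, 944 and 906 against 565, 709 and 1024, with mouse 1 the lowest and a log2 range of 1.39 that 22.9% of genes matched or passed. Npas2 was near the limit of detection, at 0, 0 and 22.9 against 9.95, 3.45 and 14.9. A count of 0 in a library allows up to 3 counts, for counting error only.

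The Per genes of blood were led by mouse 1. Per1 had 2168, 169 and 481 normalized counts in mice 1, 2 and 4, labelled UC, against 510, 532 and 573 in mice 7, 8 and 9, labelled control. The highest and the lowest library both carried the UC label and stood 12.9-fold apart, while the 3 labelled control lay between 510 and 573. Per2 had 1049, 79.8 and 139.9 against 247, 91.9 and 223, with mice 1 and 2 again at the ends, 13.1-fold apart. The log2 ranges of 3.68 for Per1 and 3.70 for Per2 were matched or passed by 1.34% and 1.31% of genes. Per3 had 164, 104 and 99.0 against 107, 66.6 and 105, and mouse 1 was again the highest. Mice 1, 7 and 9, which had high inflammatory genes, held the 3 highest values of 3 of 9 clock genes in blood. The same held for 11.8% of all 16370 genes with a mean of at least 10 normalized counts. The 3 were Per2, Per3 and Nr1d1, with Per3 of mouse 2 close below at 104. The part of inflammation in these orders was not tested.

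Cry1 was the one gene of the 10 whose blood values did not overlap between the labels. It had 490, 375 and 346 normalized counts in mice 1, 2 and 4, labelled UC, against 283, 226 and 309 in mice 7, 8 and 9, labelled control. The means were 404 ± 76.0 (SD, n = 3) and 273 ± 42.1 (SD, n = 3), a log2FC of 0.56 with an SE of 0.245, an unadjusted p of 0.0515 and an adjusted p of 0.9998 by edgeR with Benjamini-Hochberg adjustment. The difference did not pass the test.

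The REV-ERB genes parted in blood. Nr1d2 had 543, 912 and 860 normalized counts in mice 1, 2 and 4 against 691, 683 and 467 in mice 7, 8 and 9. Nr1d1 was scarce, with 45.3, 0 and 2.45 against 15.3, 0 and 9.10, which were 43, 0 and 3 counts against 20, 0 and 11. Dbp had 69.5, 119 and 102 against 85.0, 60.9 and 48.8, with mouse 9 the lowest. Dbp and Nr1d2 put 14 of 15 pairs of mice in the same order in blood as they did in colon, but it was another order, with mice 2 and 4 at the top in place of mice 4 and 8. Nr1d1 shared 14 of 15 with Per2 and 13 with Per3, and Per1 and Nr1d2 shared 1 of 15. Over all 36 pairings in blood the median was 7 of 15, as it was over all pairs of 16112 genes. Of the 36, 4 reached 13 or more, against 4.22% of all pairs of genes, and 2 had 2 or fewer, against 3.99%. The pairings with Nr1d1 rest on its few counts.

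**Figure D4:**
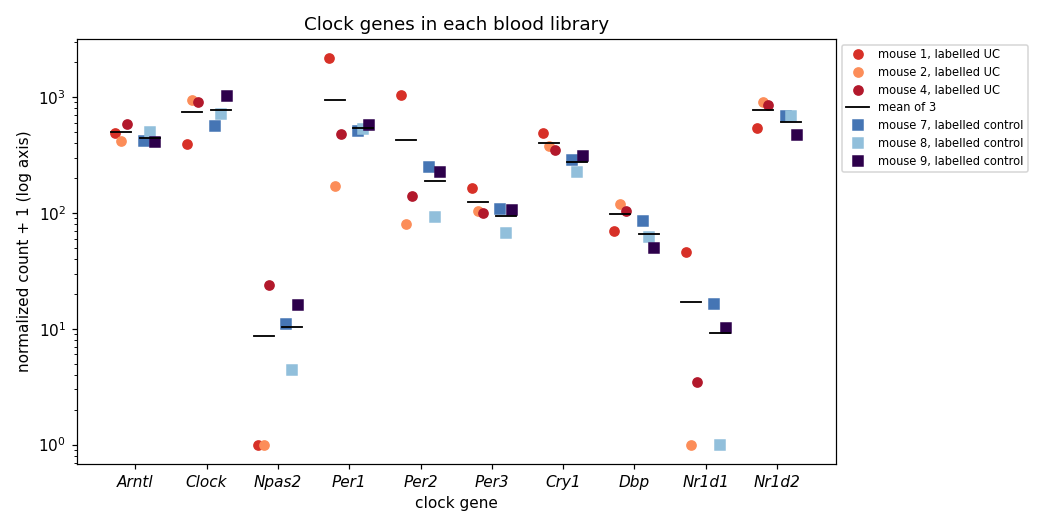
Normalized count plus 1 (log axis) of each clock gene in each blood library, drawn as for the colon. Mouse 1 is the highest for Per1, Per2, Per3, Cry1 and Nr1d1, Arntl spans the narrowest range, and Npas2 and Nr1d1 reach 0 counts in 2 libraries each.

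Mouse 1, picked out after its values were seen, was the highest blood library for 5 of the 9 clock genes with a mean of at least 10 normalized counts, and for 30.5% of all 16370 such genes. It was also the highest for 8 of 16 other clock pathway genes and for 8 of 9 glucocorticoid-induced genes. Among these 8, Sgk1 had 1075 in mouse 1 and 1067 in mouse 9. Mouse 1 was also the highest for 9 of 9 neutrophil, 4 of 4 red cell and 4 of 5 monocyte and macrophage markers. For platelet, B cell and T cell markers it was so for 2 of 5, 2 of 5 and 1 of 6. Fkbp5, a chaperone that glucocorticoid hormone induces in many cells, had 2363 normalized counts in the blood of mouse 1 and 527 to 875 in the other 5. Dusp1, a phosphatase induced by glucocorticoids and by stress signals, had 6851 against 881 to 2570, and Zbtb16, a zinc-finger regulator, had 675 against 156.5 to 238. Tsc22d3, the exception, was highest in mouse 4 at 14813 and had 10363 in mouse 1. The summed neutrophil markers of blood were 141589 in mouse 1 and between 10658 and 56246 in the other 5. Their part in the Per values, and that of the hour of collection, was not tested. Of the other clock pathway genes 0 of 17 tested were called in blood, with a median log2FC of -0.04, and of the glucocorticoid-induced genes 0 of 9 in blood and 0 of 11 in colon, with medians of 0.67 and -0.36. By edgeR, 0 of these blood genes and 1 of the 11 in colon, Zbtb16, had an unadjusted p under 0.05, and DESeq2 called 0 of them.

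Next, the effect of the label was compared between the tissues over all 12 libraries. By edgeR's interaction contrast with Benjamini-Hochberg adjustment over 23258 genes, 0 of the 10 clock genes were called, against 0.0043% of all genes, and 0 had an unadjusted p under 0.05, against 3.41% of all genes. The median of the colon log2FC minus the blood log2FC was -0.49 over the 10 genes and -0.06 over all genes. The widest was that of Per2, -1.18 with an SE of 1.12, and without mouse 1 it was 0.94. When the mouse number was added as a replicate block, the count of clock genes called was again 0, and that over all genes went from 1 to 0. Of the other clock pathway genes 0 of 21 were called, and so were 0 of 11 glucocorticoid-induced genes. In each of these lists edgeR gave 1 gene with an unadjusted p under 0.05, Arntl2 and Zbtb16, and DESeq2 called 0.

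Finally, the order of the 6 mice was compared between colon and blood of the same number. For each gene with a mean of at least 10 normalized counts in both tables, Spearman's rho was computed with an exact two-sided permutation p over the 720 pairings of 6 mice. Of the 9 clock genes tested, 0 had a positive rho with an exact p of at most 0.05, against 2.62% of all 15530 genes tested. In all, 3 of the 9 had a rho above 0, and the median rho over all genes tested was 0.086. A negative rho with an exact p of at most 0.05 was found for 0 of the 9 and for 231 of the 15530. Npas2 was too low in blood to be tested. After Benjamini-Hochberg adjustment over all genes, 0 of the 15530 passed, and the smallest exact p that 6 mice allow is 0.00278.

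The gene with the lowest exact p was Per2, which ran the other way in the tissues. Its rho was -0.83 with an exact permutation p of 0.0583, adjusted to 0.819, and 12 of 15 pairs of mice were in opposite order. Pearson's r of the log2 values was -0.71 with an exact permutation p of 0.104, and -0.80 without mice 7 and 1, the farthest from the colon median. Mouse 1 was the highest in blood and the fifth of 6 in colon, and mouse 8 was the highest in colon and the fifth in blood. Arntl had a rho of -0.66 with an exact permutation p of 0.175, and Per3 one of -0.60 with an exact permutation p of 0.242. Their Pearson's r was -0.49 with an exact permutation p of 0.307 for Arntl, and -0.48 without mice 2 and 8. For Per3 it was -0.45 with an exact permutation p of 0.347, and -0.08 without mice 8 and 9.

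Clock was the gene with the most alike order, a rho of 0.60 with an exact permutation p of 0.242, adjusted to 0.861, and 11 of 15 pairs in the same order. Its Pearson's r was 0.61 with an exact permutation p of 0.214, and 0.52 without mice 7 and 2. Dbp, the widest gene in the colon, had a rho of 0.03 with an exact permutation p of 1.00, and 7 of 15 pairs in the same order. Mouse 8 had 8908 normalized counts of it in colon, the most of any mouse, and 60.9 in blood, the fifth of 6. Nr1d2 had a rho of 0.26, Nr1d1 one of -0.26, and Per1 and Cry1 -0.03 each, with exact permutation p values from 0.594 to 1.00. Pearson's r of these 4 and of Dbp lay between -0.30 and 0.36, and leaving out the 2 farthest mice turned its sign for Nr1d1, Nr1d2, Per1 and Cry1.

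**Figure D5:**
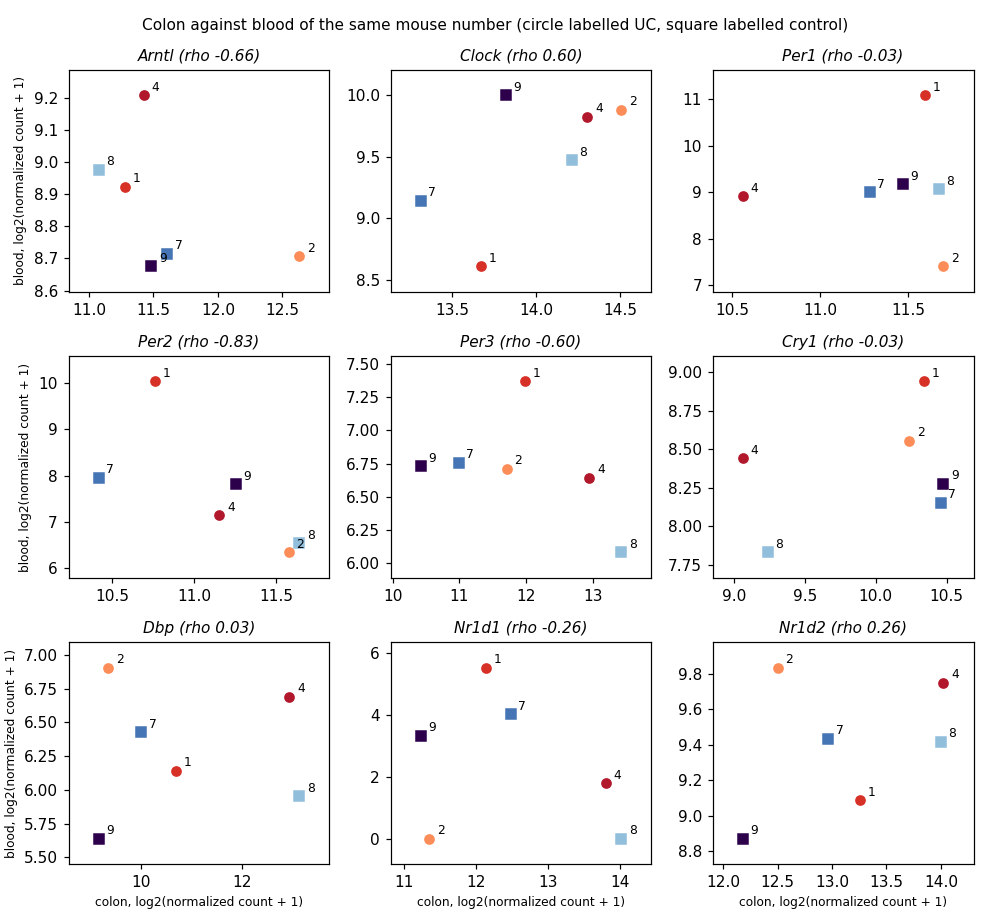
Log2(normalized count + 1) in colon (x axis) against blood (y axis) for each of the 9 clock genes tested, with each point a mouse named by its number, circles labelled UC and squares labelled control. Per2 falls from upper left to lower right with a rho of -0.83, Clock leans upward with a rho of 0.60, and Dbp shows no common order with a rho of 0.03.

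For 0 of the 9 clock genes was the same mouse the highest in both tissues, against 18.6% of the 15530 genes. The lowest mouse was the same for Dbp and Nr1d2, mouse 9 in both. The rho of Cry1 moved most with the handling of the groups. With the labelled group mean taken off the log2 values in each tissue, its 6 mice fell in the same order in both tissues. The rho was then 1.00 with a permutation p of 0.00278, adjusted to 0.313, where the values as measured gave -0.03. That p is not exact, since deviations that sum to 0 within each labelled group were permuted across the groups. Under that handling the rho of Per1 turned to 0.086, that of Dbp to -0.26 and that of Nr1d2 to -0.14, and 4.76% of all genes passed the unadjusted threshold and none passed after adjustment.

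The ratio of Dbp to Arntl, so wide in the colon, was narrow in blood. Its log2 was -2.80, -1.81 and -2.53 in mice 1, 2 and 4, labelled UC, and -2.30, -3.04 and -3.06 in mice 7, 8 and 9, labelled control. The 6 blood libraries thus lay within -3.06 to -1.81, and the 6 colon libraries within -3.27 to 2.05. The log2 ratio of Per3 to Arntl in blood lay between -2.91 in mouse 8 and -1.56 in mouse 1. That of Nr1d1 to Arntl could not be given for mice 2 and 8, whose Nr1d1 count was 0.

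The genes whose pattern was most like Dbp were sought among 10578 genes with a mean of at least 100 normalized counts in both tables, by the lower of the 2 Pearson's r over the 6 colon and the 6 blood libraries. They were Chchd5, with r of 0.91 in colon and 0.91 in blood, Lsm14b with 0.90 and 0.90, Mylip with 0.87 and 0.87, Zfp707 with 0.91 and 0.86, and Fuz with 0.86 and 0.96. For Arntl they were Ndufa5 with 0.81 and 0.80, Dnmt3b with 0.94 and 0.80, Phb2 with 0.82 and 0.80, Yif1b with 0.86 and 0.77, and Socs7 with 0.93 and 0.76. These r are descriptions over 6 libraries that share depth and scaling.

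Some counts may hold reads of neighbours, since the authors' quantification set no library strand. Exons of Dbp on chromosome 7 share 539 bases, 18.0% of its exon length, with Sphk2 on the opposite strand. Sphk2, a lipid kinase, had 6121, 4594 and 7184 normalized counts in the colon of mice 1, 2 and 4, and 4651, 6846 and 3744 in mice 7, 8 and 9, a much narrower range than Dbp with mice 4 and 8 again the highest 2. Exons of Nr1d1 on chromosome 11 share 263 bases, 8.55% of its exon length, with Thra, a thyroid hormone receptor gene, on the opposite strand. Thra had 4790, 5257 and 3878 against 4014, 3776 and 2827, and its highest mouse was mouse 2, not mouse 8. Arntl shares 33 bases with the antisense gene Gm45355. The part of shared bases in the counts was not tested.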

How the data were processed

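Total RNA was sequenced from colon (ribosomal RNA removed) and whole blood (ribosomal and globin RNA removed) of 6 mice. Per the study's methods, the authors cleaned the reads of adapters and ribosomal sequence, aligned them to GRCm38 by STAR, and ran StringTie 1.3.4c on the Ensembl annotation with default options, which set no strand. The deposited counts are gene counts the authors derived from StringTie's coverage, so they are whole numbers but no tally of reads. The deposited normalized counts, a signal scale with one table per tissue, are the counts divided by 1 factor per library, 0.791 to 1.21 in colon and 0.664 to 1.31 in blood, and were compared within a tissue only.

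Groups came from the disease and tissue labels and mouse numbers from the titles. Whether the 3 mice of a group shared a cage is not given in the sources used here. The edgeR p-values rest on the spread between the mice within a labelled group. Each labelled group held mice with high and with low inflammatory genes, so that spread includes this difference. The permutation p-values concern only the pairing of the mice between the tissues. The clock genes and all lists were chosen with earlier results of these data known. The named genes were the 10 clock genes, the 5 genes most like Dbp and like Arntl, S100a8 and Lcn2, and genes whose exons overlap a clock gene. Other genes are given by counts, and those named beside them were chosen after their values were seen.

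The tests on counts used edgeR 4.0.16 under R 4.3.3 (TMM, filterByExpr, glmQLFit, glmQLFTest, Benjamini-Hochberg over all genes), each tissue alone and as an interaction over 12 libraries. SE was obtained as log2FC over the root of the F statistic. Order tests, with a pseudocount of 1 on the log2 scale, ran in Python 3.11.15 with numpy 2.4.6 and pandas 2.3.3. Exon lengths, positions and overlaps came from GENCODE (GRCm38), and promoter windows from RefSeq (GRCm38.p6). Lists were other clock pathway genes, glucocorticoid-induced genes, inflammatory genes and markers of red cells, platelets, neutrophils, monocytes and macrophages, T cells, B cells, absorptive colonocytes, goblet cells, smooth muscle and fibroblasts. Of 109 list genes, 108 were found by symbol. Of the other clock pathway genes, 2 are not reported here by themselves. In the edgeR fits 0 genes of any marker list or of the inflammatory list were called, 0 to 1 of a list had an unadjusted p under 0.05, and DESeq2 called 1, Dcn, in the interaction.

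Alternatives were RLE or library-size scaling, other filters, DESeq2 1.42.0, limma-voom (limma 3.58.1), Kendall's tau, values minus the labelled group mean, each mouse left out, and a replicate block by mouse number. The study took both tissues from the same mice, which is where the pairing comes from. As a check, each library's deviations from the mean of its labelled group were correlated between same-numbered colon and blood libraries over 10578 genes, with r of 0.29, 0.15, 0.16, 0.14, 0.22 and 0.0059 for mice 1, 2, 4, 7, 8 and 9. The edgeR and order steps were checked on simulated data with known answers. In the simulated edgeR data every mouse of a group carried the same change, so that check does not measure power in these libraries.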

Additional observations from a re-analysis of the deposited data

How the results depend on the processing

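No clock gene was called between the labelled groups, or in the interaction, under any alternative run, DESeq2 included. The count over all genes changed: DESeq2 called 6 genes in colon, 6 in blood and 20 in the interaction, limma-voom called 0 in colon, and scaling by library size alone called 1 in blood. A replicate block by mouse number left the interaction with 0 genes. Leaving out each mouse in turn gave 0 genes in colon, 0 to 3 in blood and 1 to 2 in the interaction.

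The direction of the log2FC was not stable for most clock genes. Leaving out each mouse, it ran in colon from -0.067 to 0.74 for Arntl, -0.090 to 0.33 for Npas2, -0.33 to 0.15 for Per1, -0.27 to 0.31 for Per2, -0.40 to 1.58 for Per3, -0.48 to 0.12 for Cry1, -1.62 to 2.05 for Dbp, -1.23 to 0.80 for Nr1d1 and -0.33 to 0.76 for Nr1d2. In blood it ran from -0.24 to 0.28 for Clock, -6.27 to 0.33 for Npas2, -0.71 to 1.29 for Per1, -0.76 to 1.65 for Per2 and -2.44 to 1.75 for Nr1d1. In the interaction it ran from -0.37 to 0.66 for Arntl, -0.40 to 7.66 for Npas2, -1.65 to 0.45 for Per1, -1.90 to 0.94 for Per2, -0.92 to 1.38 for Per3, -2.12 to 1.55 for Dbp, -2.69 to 2.47 for Nr1d1 and -0.56 to 0.36 for Nr1d2. Per2 in colon turned to 0.0014 with RLE size factors, 0.045 with library size alone, 0.013 without a filter, 0.0014 with DESeq2 and 0.043 with limma-voom. Dbp in colon turned to 0.040 with library size alone and 0.32 with limma-voom. With library size alone the blood median of all genes moved from 0.04 to -0.27, and against it Arntl at -0.10 and Per3 at -0.025 stayed above the median. Nr1d1 in blood was -0.058 with limma-voom, and Per3 in the interaction was 0.30 with the replicate block.

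Over all genes, 780 passed the order test with library size alone, 199 by Kendall's tau, 739 with the labelled group means taken off, and 155 to 199 without a mouse. With the group means taken off, where the p is not exact, 1 clock gene passed, Cry1 at 1.00. Per1 was then at 0.086, Dbp at -0.26 and Nr1d2 at -0.14. With library size alone, rho was 0.60 for Arntl, 0.49 for Cry1 and -0.43 for Dbp. It was 0.14 for Per1 with TMM, and Kendall's tau was 0.067 for Per1, 0.067 for Cry1 and -0.067 for Dbp. Without a mouse, rho ran from -0.30 to 0.70 for Per1, -0.50 to 0.20 for Cry1, -0.70 to 0.30 for Dbp, -0.70 to 0.10 for Nr1d1 and -0.30 to 0.70 for Nr1d2. With the longest transcript as length, levels in CPM per kb moved past their SD for Arntl (9.75) and Clock (20.1) in colon and for Arntl (1.03), Dbp (0.384) and Per3 (0.159) in blood. The ratios of genes within a library did not move past their SD. The cause of these changes was not tested.

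The hour at which each mouse was killed is not given in the sources used here, so its part in any value was not tested. An exact permutation test of 3 mice against 3 cannot go below 0.10. Npas2 and Nr1d1 were read at 0 counts in some blood libraries, and their blood values are limited by depth.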
